A study of Mus musculus with 2 samples.

Results

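The genes described here are 35 members of the ATF4 amino acid response, including 8 cytosolic tRNA synthetases, in a mouse cementoblast-like cell line put under compressive force. They were chosen by name from known roles, with earlier results of these data known. All 35 had a row among the 44792 rows of the deposited count table. They fall into 9 factors and effectors of the response, 10 enzymes of amino acid synthesis, 8 amino acid transporters and 8 enzymes of tRNA charging.

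Both libraries came from wild type OCCM-30 cells, immortalized cells resembling cementoblasts, which form the cementum of the tooth root. One culture was put under compressive force, the other served as control, and both grew in serum-containing Dulbecco's modified Eagle's medium. How strong the force was and how long it lasted is not stated in the labels. With 1 library in each group no difference has a replicate check, no test between conditions was possible, and no p-value is given. Being 1 immortalized line, the cells limit what the values say of cementoblasts in tissue.

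The library of compressed cells held 24296292 counts and the control library 25049919 counts. Collagen genes and other matrix genes of the line were abundant, with Col1a1 at 7758 CPM (counts per 1000000, on library sizes scaled by trimmed mean of M-values) under force and 7535 CPM in the control. Runx2, the osteoblast transcription factor, was at 182 CPM under force and 231 CPM in the control. Of the other markers of these cells, Col1a2 was at 4916 CPM under force and 4789 CPM in the control. Sparc was at 2096 CPM under force and 1919 CPM in the control, and Spp1 at 196 CPM and 178 CPM. Alpl was at 35.4 CPM under force and 32.6 CPM in the control, and Postn at 22.5 CPM and 21.0 CPM. Sp7 was at 4.08 CPM under force and 3.91 CPM in the control. Bglap had only 12 counts under force and 11 in the control. Bone sialoprotein (Ibsp), a defining cementoblast marker, was at 0 counts under force and in the control, limiting it to at most 0.124 CPM under force and 0.12 CPM in the control. Of 9 macrophage and endothelial markers, 5 passed 1 CPM in either library, and all 9 summed to 22.1 CPM under force and 22.6 CPM in the control. The most abundant of them were Cd14, at 9.96 CPM under force and 11.0 CPM in the control, and Cd68, at 6.18 CPM and 5.71 CPM. Ptprc, Adgre1 (listed as Emr1) and Kdr were at 0 counts in both libraries. In bulk RNA, fewer cells with a transcript and less of it per cell cannot be told apart.

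Cells short of amino acids, or under stress in the endoplasmic reticulum, phosphorylate the translation factor eIF2. General translation then falls, while the mRNA of the transcription factor ATF4 is translated more. ATF4 pairs with C/EBP proteins on composite DNA elements and raises genes that make, import and charge amino acids, and also genes of feedback and cell death. Matrix-forming cells such as osteoblasts depend on ATF4 for the amino acids that collagen synthesis consumes.

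Stress effectors of the response were more abundant in the compressed library, while Atf4 itself, most synthesis enzymes, most transporters and most of the tRNA synthetases lay close to a ratio of 1. Ppp1r15a, Pycr1, Chac1, Ddit3, Nupr1, Trib3, Cebpb and Mthfd1l were 1.31 to 1.67 times higher under force than in the control. Slc38a2 and Wars were lower under force, at ratios of 0.732 and 0.799. Every ratio is that of compressed over control and carries an exact 95% interval that covers counting error only. Reads are not separate molecules, and the variation between cultures is not in the interval.

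No member differed by 2-fold, against 3.06% of the 14001 genes tested that were at least 2-fold higher and 0.929% that were at least 2-fold lower. A gene was tested when it had at least 1 CPM in either library, and was called higher or lower when its ratio passed a limit and its interval excluded 1. All 35 members passed this minimum. With the limits set 25% above and 20% below a ratio of 1 (called the 25% limit), 8 members were higher and 2 lower. These were 22.9% and 5.71% of the members, against 14.3% and 11.4% of all genes tested.

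All members but Slc7a3 had a mean of at least 10 CPM, so the shares were also taken over the 9550 genes in that range, a limit added after the values were seen. Of the 34 members in it, 8 were higher and 2 lower at the 25% limit, against 11.1% and 10.7% of these abundant genes. None of these differences in share was tested. The middle 90% of the abundant genes had ratios between 0.740 and 1.42, and the middle 90% of all genes tested had ratios between 0.684 and 1.71. Above the range of the abundant genes lay Ppp1r15a, Pycr1, Chac1, Ddit3, Nupr1 and Trib3, and below it lay Slc38a2. No member lay outside the range of all genes tested, the lowest being Slc7a3 at 0.713 and the highest Ppp1r15a at 1.67. The median log2 ratio was 0.03 over the 35 members and -0.03 over the abundant genes.

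**Figure D1:**
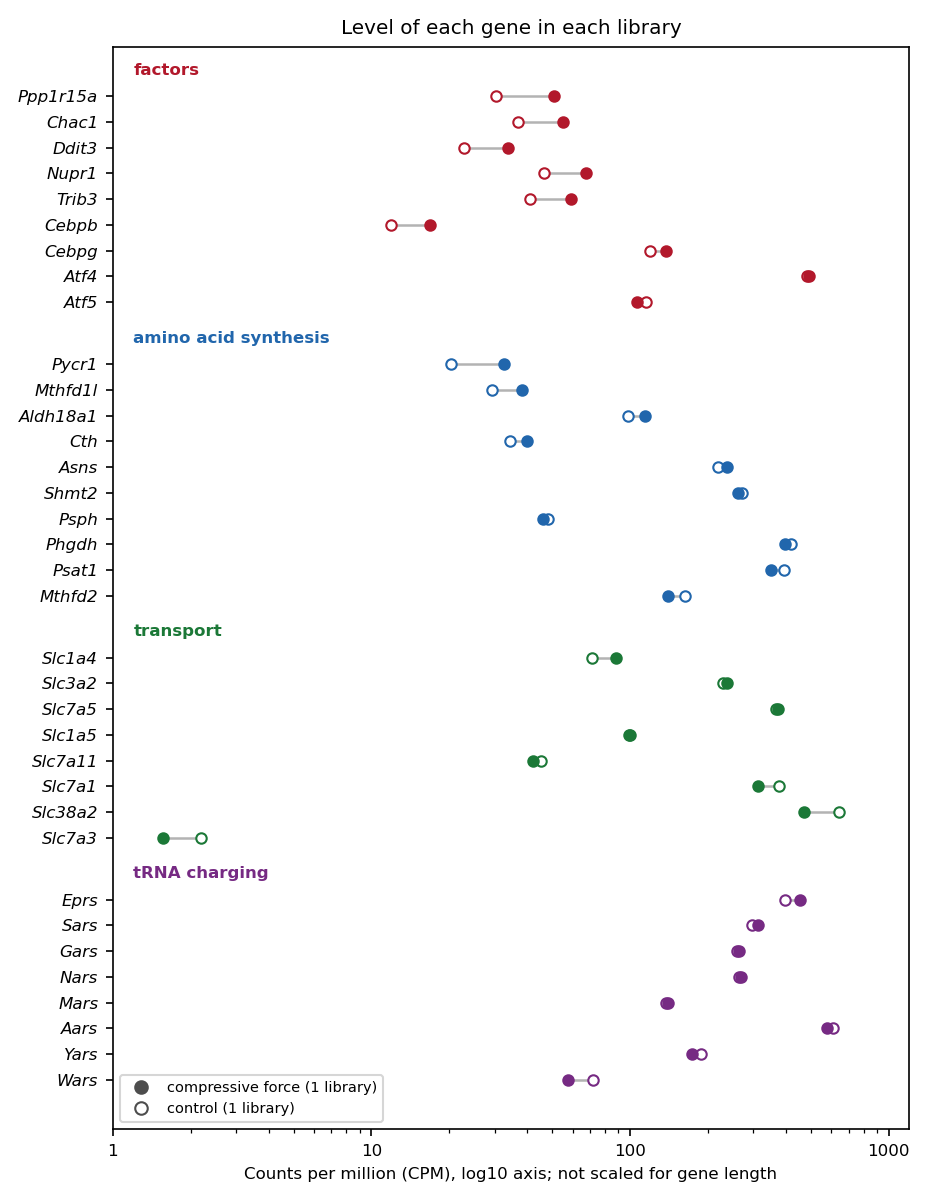
Level of each of the 35 genes in CPM (log10 axis, not scaled for gene length) in the compressive force library (filled circles) and the control library (open circles), grouped by function and joined by a line, with 1 library per group and no error bars. The filled circle lies to the right for Ppp1r15a, at 50.8 CPM under force and 30.4 CPM in the control, and to the left for Slc38a2, at 469 CPM under force and 641 CPM in the control.

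Among the transcription factors, the mRNA of Atf4, the central activator of the response, was nearly level at 492 CPM under force and 485 CPM in the control. Its ratio was 1.02 (0.990 to 1.04), so a difference in its mRNA was not detectable at 11955 counts under force and 12154 in the control. Atf4 protein is set mostly at translation and was not measured. Atf5, a related factor that is also controlled at translation, was at 106 CPM under force and 115 CPM in the control, a ratio of 0.926 (0.878 to 0.977).

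Ddit3, which encodes the pro-apoptotic factor CHOP, was at 33.6 CPM under force and 22.8 CPM in the control. Its ratio was 1.47 (1.32 to 1.64). Cebpb and Cebpg encode C/EBP partners of ATF4. Cebpb was at 16.8 CPM under force and 11.9 CPM in the control, a ratio of 1.42 (1.22 to 1.65), and Cebpg was at 138 CPM under force and 119 CPM in the control, a ratio of 1.15 (1.10 to 1.21). Cebpb passed the 25% limit and Cebpg did not.

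The effectors grouped with these factors were all higher under force. Ppp1r15a, the phosphatase subunit GADD34 that reverses eIF2 phosphorylation, had the highest ratio of the 35 genes, 1.67 (1.52 to 1.83), from 1233 counts under force and 763 in the control. Chac1, an enzyme that degrades glutathione, was at 55.0 CPM under force and 36.9 CPM in the control, with a ratio of 1.49 (1.37 to 1.62). Nupr1, a small stress-induced nuclear protein, was at 67.7 CPM under force and 46.6 CPM in the control, a ratio of 1.45 (1.35 to 1.57). Trib3, a pseudokinase that restrains ATF4 and AKT signalling, was at 58.9 CPM under force and 41.2 CPM in the control, a ratio of 1.43 (1.32 to 1.55).

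Taken as a group, 6 of the 9 factors and effectors were higher at the 25% limit and 0 were lower, against the 14.3% and 11.4% of all genes tested. Their median log2 ratio was 0.52, against -0.01 over the 14001 genes tested. Among the other 26 members, 2 were higher and 2 were lower, with a median of 0.01. The difference between these groups was not tested. Bnip3 and Ndrg1, genes known to be induced by low oxygen and chosen after their values were seen, were also more abundant under force. Bnip3 was at 279 CPM under force and 42.1 CPM in the control, and Ndrg1 was at 484 CPM under force and 80.6 CPM in the control. Genes induced by low oxygen were not examined as a set. The part of low oxygen in the values here was not tested.

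**Figure D2:**
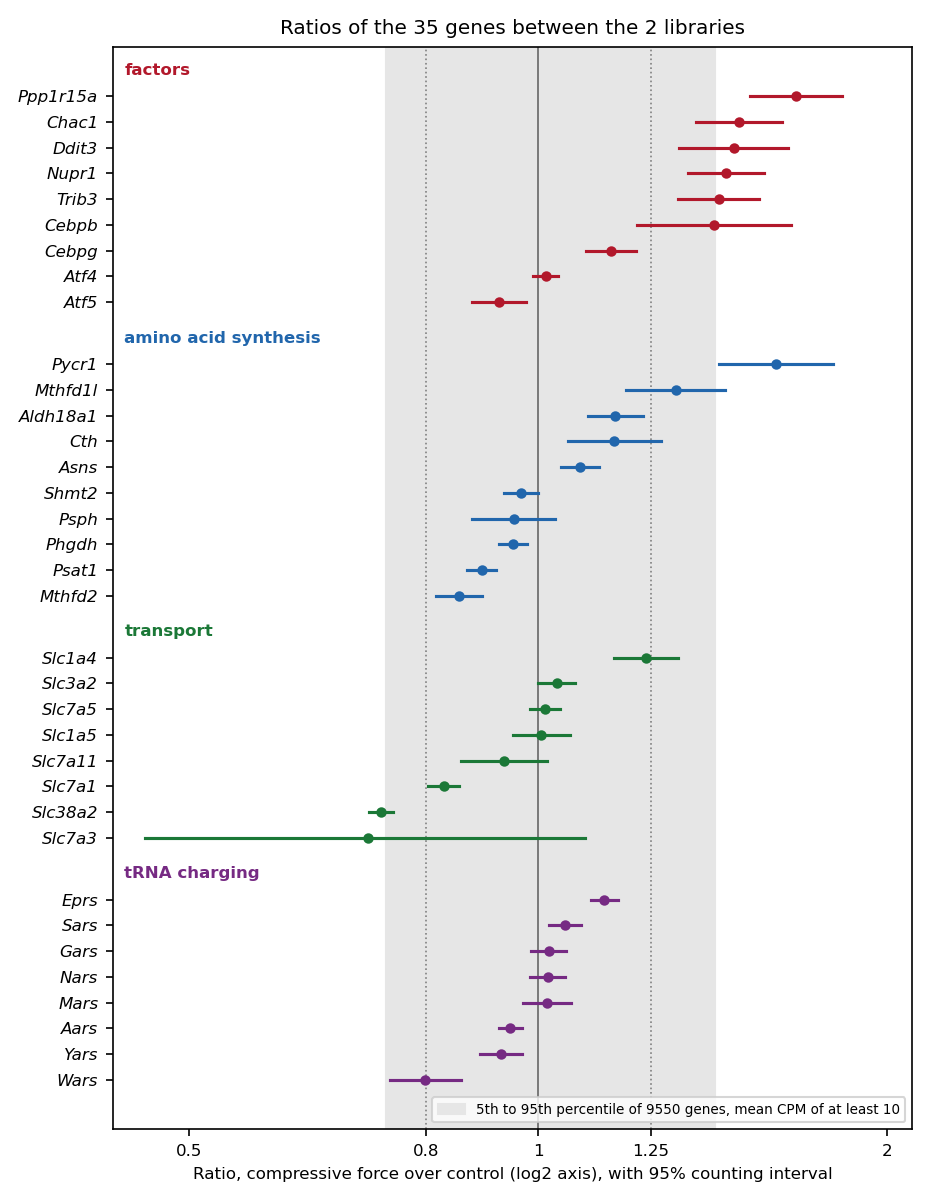
Ratio of the compressive force over the control library for each of the 35 genes (points, log2 axis) with its 95% counting interval (lines), by function. Grey marks the 5th to 95th percentile of 9550 abundant genes, and dotted lines mark the 25% limit on either side. Of the factors, 6 lie right of the upper limit, while the 8 tRNA synthetases lie between 0.799 and 1.14.

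The composite element read by ATF4 and a C/EBP partner was searched as TGATGNAA on both strands, from 250 bases before to 50 bases after each RefSeq transcription start. Windows existed for 29 members, and 10 of these genes held a match (34.5%), against 1219 of 27025 genes with a window (4.51%). Many of the members are known ATF4 targets, so this share is a description and supports nothing by itself. Of 8 members higher at the 25% limit, 4 held a match, namely Trib3, Chac1, Nupr1 and Pycr1. Of 21 other members with a window, 6 held one, namely Asns, Slc7a11, Slc1a4, Aars, Gars and Yars. The ratios of these 6 ran from 0.929 (Yars) to 1.24 (Slc1a4), so genes with the element stood on both sides of the upper limit. A match is a description of these letters and not evidence of binding.

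Stretches of 6 promoters are given to show the same element in genes that were higher under force and in genes that were not. The first 3 (Chac1, Nupr1 and Pycr1) had ratios of 1.49, 1.45 and 1.60, and the last 3 (Asns, Slc7a11 and Aars) had ratios of 1.09, 0.934 and 0.946. All are from RefSeq on build GRCm38.p6, read 5′ to 3′ along the gene, with the matches in capitals. The opposite-strand form reads TTNCATCA.
Chac1, chr2:119351019-119351086, + strand: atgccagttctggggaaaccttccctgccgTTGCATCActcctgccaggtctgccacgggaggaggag
Nupr1, chr7:126625543-126625610, - strand: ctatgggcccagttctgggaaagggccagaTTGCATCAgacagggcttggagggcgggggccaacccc
Pycr1, chr11:120643814-120643881, - strand: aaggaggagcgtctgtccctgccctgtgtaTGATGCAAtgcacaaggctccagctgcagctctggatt
Asns, chr6:7693210-7693262, - strand: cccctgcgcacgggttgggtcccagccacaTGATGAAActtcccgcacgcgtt
Slc7a11, chr3:50443623-50443709, - strand: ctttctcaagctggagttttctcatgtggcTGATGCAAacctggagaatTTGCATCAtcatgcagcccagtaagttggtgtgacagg
Aars, chr8:111033700-111033767, + strand: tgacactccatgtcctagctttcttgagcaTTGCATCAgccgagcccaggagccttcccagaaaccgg

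The matches in Chac1, Nupr1 and Pycr1 began 193, 110 and 103 bases before the start, and that in Asns began 23 bases before it. Slc7a11 carried a pair of matches in opposite orientation, beginning 66 and 47 bases before the start. The matches in Trib3 and Yars lay after the start, and that in Slc1a4 spanned it. Aars, shown with the match that began 112 bases before its start, held a second match after it.

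Enzymes of amino acid synthesis lay on both sides of a ratio of 1. Proline synthesis held the highest ratio of the group. Pycr1, the mitochondrial reductase that completes proline, was at 32.5 CPM under force and 20.3 CPM in the control, a ratio of 1.60 (1.43 to 1.80), on chr11:120638998-120643748. Aldh18a1, which makes the precursor that Pycr1 reduces, was at 114 CPM under force and 98.2 CPM in the control, a ratio of 1.17 (1.10 to 1.23).

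The serine pathway was slightly lower under force or level. Phgdh, its first enzyme, was at 399 CPM under force and 419 CPM in the control, a ratio of 0.952 (0.926 to 0.979). Psat1, the aminotransferase of the pathway, was at 351 CPM under force and 392 CPM in the control, a ratio of 0.894. Psph, the phosphatase that releases serine, was at 45.9 CPM under force and 48.1 CPM in the control, and its interval of 0.878 to 1.03 included 1. None of these passed the 25% limit.

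Mitochondrial one-carbon enzymes, which take the folate-bound carbon of serine, split by gene. Shmt2, which opens this route, was at 262 CPM under force and 272 CPM in the control. Its interval of 0.934 to 1.0004 only just included 1. Mthfd2, the next enzyme, was at 140 CPM under force and 163 CPM in the control, a ratio of 0.855 (0.817 to 0.895). Mthfd1l, which releases formate at the end of the route, was at 38.3 CPM under force and 29.2 CPM in the control, a ratio of 1.31 (1.19 to 1.45). The span of Mthfd1l overlaps the noncoding gene Gm16074, which had 119 counts under force and 60 in the control, and without a known strand setting their reads cannot be told apart.

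Asns, asparagine synthetase and a standard readout of ATF4, was at 237 CPM under force and 218 CPM in the control, a ratio of 1.09 (1.05 to 1.13). Cth, which makes cysteine from cystathionine, was at 40.02 CPM under force and 34.4 CPM in the control, a ratio of 1.16 (1.06 to 1.28). Over the 10 synthesis enzymes the median log2 ratio was 0.04, with 2 higher and 0 lower at the 25% limit, and the summed level was 1660.1 CPM under force and 1695 CPM in the control. The higher pair made up 2 of 10 against 14.3% of all genes tested, which is near that background.

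Transporters lay on both sides of a ratio of 1, with 4 of 8 above it and 4 below. Slc38a2, the sodium-coupled carrier SNAT2 that takes up small neutral amino acids, had 11388 counts under force and 16057 in the control. Its level was 469 CPM under force and 641 CPM in the control, and its ratio of 0.732 (0.714 to 0.750) was the lowest of any member whose interval excluded 1. Slc7a1, the main carrier of arginine and lysine, was at 311 CPM under force and 375 CPM in the control, a ratio of 0.829 (0.804 to 0.855). Slc7a3, a further cationic carrier, had only 38 counts under force and 55 in the control, and at this depth a difference was not detectable (0.459 to 1.10).

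Slc7a5, Slc3a2 and Slc1a5 were nearly level. Slc7a5, the leucine carrier LAT1, was at 372 CPM under force and 367 CPM in the control. Its partner chain Slc3a2 was at 237 CPM under force and 228 CPM in the control, with a ratio of 1.04. The interval of Slc3a2, 1.00002 to 1.08, only just excluded 1. Slc1a5, which carries glutamine, was at 99.9 CPM under force and 99.3 CPM in the control. The interval of Slc7a5 and that of Slc1a5 included 1, as did that of Slc7a11, the cystine carrier, at 42.3 CPM under force and 45.3 CPM in the control.

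The transporter with the highest ratio was Slc1a4, a carrier of alanine, serine and cysteine, at 88.6 CPM under force and 71.5 CPM in the control. Its ratio of 1.24 (1.16 to 1.32) lay just under the 25% limit, and passed it under the loess fit. Over the 8 transporters, 0 were higher and 1 was lower at the 25% limit, against 14.3% and 11.4% of all genes tested, and the median log2 ratio was -0.05, or 0.01 at a CPM minimum of 5, which leaves out Slc7a3. A count of 1 in 8 is near that background. Their summed level was 1621 CPM under force and 1830 CPM in the control, and Slc38a2 alone made up most of that gap.

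The tRNA synthetases, which load each amino acid onto its tRNA, stayed within a narrow range. Aars, the alanine enzyme, was at 575 CPM under force and 608 CPM in the control, a ratio of 0.946 (0.924 to 0.968). Gars, the glycine enzyme, was at 264 CPM under force and 259 CPM in the control. Nars, the asparagine enzyme, was at 268 CPM under force and 263 CPM in the control. Gars, Nars and Mars, the methionine enzyme, each had a ratio of 1.02 with an interval that included 1. Sars, the serine enzyme, was at 312 CPM under force and 296 CPM in the control, a ratio of 1.05 (1.02 to 1.09). Yars, the tyrosine enzyme, was at 174 CPM under force and 187 CPM in the control, a ratio of 0.929.

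Eprs, which charges both glutamate and proline, had the highest ratio of these synthetases, 1.14 (1.11 to 1.17), at 453 CPM under force and 397 CPM in the control. Wars, the tryptophan enzyme, had the lowest ratio, at 57.6 CPM under force and 72.1 CPM in the control, and its ratio of 0.799 (0.745 to 0.857) just passed the limit of 0.8. Wars is also known as a gene that interferon induces. Over these 8 genes the summed level was 2245 CPM under force and 2220.5 CPM in the control, a ratio of 1.01 (0.999 to 1.02), and the median log2 ratio was 0.03.

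The other 12 cytosolic synthetases gave a similar picture, with 0 higher and 1 lower at the 25% limit, against 14.3% and 11.4% of all genes tested, and a median log2 ratio of -0.08. Their highest ratios were those of Qars at 1.13 and Iars at 1.09, and their lowest those of Hars at 0.795 and Farsa at 0.858. Summed over all 20 cytosolic synthetases, the level was 4437 CPM under force and 4433 CPM in the control, a ratio of 1.00 (0.993 to 1.01).

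Mitochondrial synthetases, which charge tRNAs inside the organelle, had 0 of 17 higher and 3 lower at the 25% limit, against 14.3% and 11.4% of all genes tested, so the lower count is near the background. Their median log2 ratio was -0.10. Mars2 was the lowest at 0.659 (0.579 to 0.750), from 387 counts under force and 606 in the control, followed by Yars2 at 0.714. Pars2 at 1.17 and Fars2 at 1.11 were the highest, and both intervals included 1. The genes of 3 scaffold proteins of the cytosolic multisynthetase complex all had ratios below 1, against a median ratio of 0.993 over all genes tested. Of these 3, 0 were higher and 1 was lower at the 25% limit, against 14.3% and 11.4% of all genes tested. Eef1e1 was at 18.9 CPM under force and 29.9 CPM in the control, a ratio of 0.632 (0.561 to 0.710). Aimp1 had a ratio of 0.867 and Aimp2 a ratio of 0.903.

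**Figure D3:**
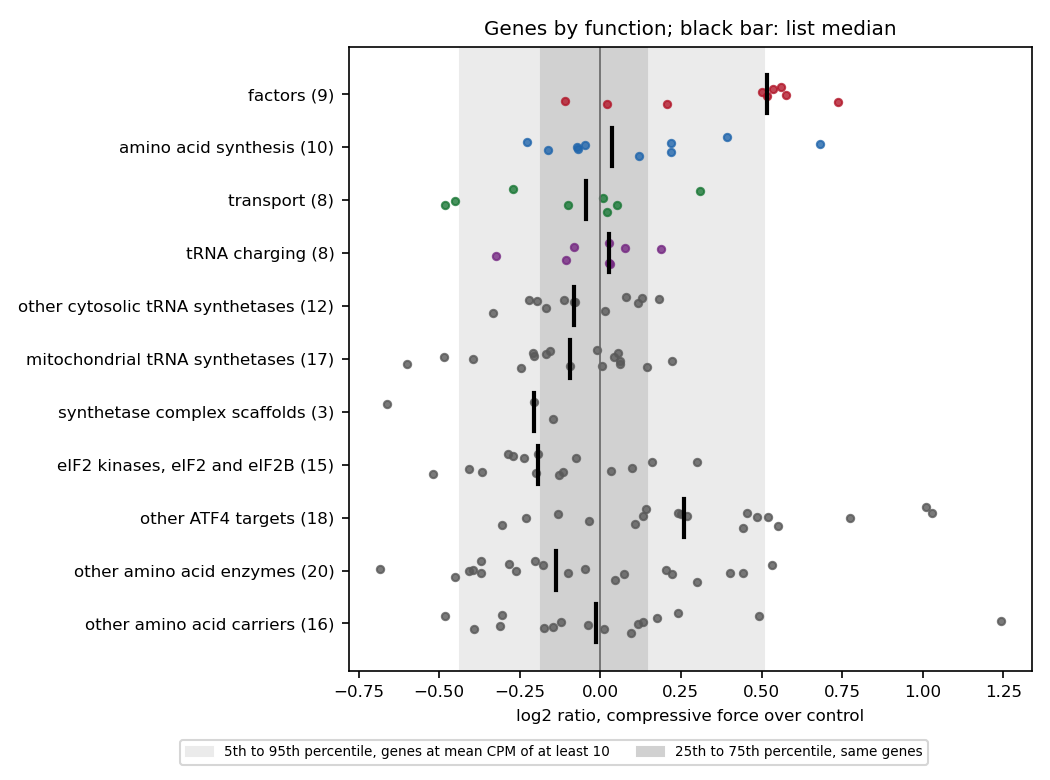
log2 ratio of the compressive force over the control library for each gene above 1 CPM in either library (points), in the 4 groups of the 35 genes (coloured) and 7 lists of related genes (grey), with the number of genes in brackets and each list's median as a black bar. Shading marks the 25th to 75th and the 5th to 95th percentile of abundant genes. The medians of the factors (0.52) and of the other ATF4 targets (0.26) lie farthest to the right. The lists of other ATF4 targets and of other amino acid carriers share 2 genes, which are drawn in both. All groups and lists were chosen with earlier results of these data known.

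Upstream of ATF4, the 15 genes for eIF2 kinases, eIF2, its exchange factor eIF2B and their regulators had 0 higher and 3 lower at the 25% limit, against 14.3% and 11.4% of all genes tested. Their median log2 ratio was -0.19. The kinase genes Eif2ak3 (PERK, the sensor of endoplasmic reticulum stress) and Eif2ak4 (GCN2, the sensor of uncharged tRNA) had the highest ratios, 1.23 (1.15 to 1.31) and 1.12 (1.06 to 1.18). The other kinase genes, Eif2ak1 (HRI, activated by low heme) and Eif2ak2 (PKR, activated by double-stranded RNA), lay below 1, at 0.775 (0.712 to 0.843) and 0.874 (0.837 to 0.913), and Eif2ak1 was among the 3 called lower. Eif2b3, a subunit of eIF2B, was at 28.6 CPM under force and 41.0 CPM in the control, a ratio of 0.697 (0.632 to 0.769). Impact, an inhibitor of GCN2 activation, had a ratio of 0.753. The activity of these kinases is set by the protein and was not measured.

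A list of 18 other genes known as ATF4 targets had 7 higher and 0 lower at the 25% limit, against 14.3% and 11.4% of all genes tested. At 2-fold 2 were higher, against 3.06%. This list was chosen with earlier results of these data known, so its shares are a description. These shares were not tested against each other. The median log2 ratio of the list was 0.26. Vldlr, a lipoprotein receptor, was at 181 CPM under force and 88.5 CPM in the control, a ratio of 2.04 (1.94 to 2.15). Ddit4, an inhibitor of mTORC1, was at 32.1 CPM under force and 15.9 CPM in the control, a ratio of 2.02 (1.79 to 2.28). Both are also known as genes induced by low oxygen. At the low end were the amino acid carrier Slc7a6, at 0.809 (0.767 to 0.854), and the tRNA export factor Xpot, at 0.852.

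Other enzymes of serine, one-carbon, proline and sulfur metabolism were mixed. Of 24 listed, 20 passed 1 CPM in either library and Cbsl had no row among the deposited counts. Of the 20, 3 were higher and 6 lower at the 25% limit, against 14.3% and 11.4% of all genes tested, and the median log2 ratio was -0.14. Mat2a, which makes S-adenosylmethionine, was at 172 CPM under force and 276 CPM in the control, a ratio of 0.623 (0.599 to 0.647). Bcat2, the mitochondrial branched-chain aminotransferase, was at 34.5 CPM under force and 23.8 CPM in the control, a ratio of 1.45 (1.30 to 1.61), and Amt, of the glycine cleavage system, had 166 counts under force and 126 in the control.

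Of 20 other amino acid carriers, 16 passed 1 CPM in either library, and 1 was higher and 2 lower at the 25% limit, against 14.3% and 11.4% of all genes tested. Their median log2 ratio was -0.01. Slc38a1, a relative of Slc38a2, was also lower under force, at 19.6 CPM against 27.5 CPM in the control, with a ratio of 0.715 (0.635 to 0.805). Slc6a6, the taurine carrier, was at 294 CPM under force and 386 CPM in the control, a ratio of 0.761. Slc43a2, a carrier of large neutral amino acids, had 58 counts under force and 25 in the control, a ratio of 2.39 (1.47 to 3.99). Slc38a4 had 82 counts under force and 60 in the control, with an interval of 0.999 to 2.002.

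Some values are uncertain because of how genes lie in the genome. Ddit3 and Mars share 71 bases of their spans on chr10:127296221-127296291, and Mars was nearly level at 140 CPM under force and 138 CPM in the control. Ddit3 also overlaps Mbd6, with 887 counts under force and 743 in the control. Ppp1r15a, on chr7:45522917-45526268, overlaps Tulp2, which had 0 counts in both libraries. Slc7a3 overlaps Snx12, with 2194 counts under force and 2389 in the control, and Psph overlaps Cct6a, with 7581 and 9097. Atf5 overlaps Nup62, with 2321 counts under force and 2395 in the control, and Wars overlaps Wdr25, with 91 and 131. Shmt2, Aldh18a1 and Aars also overlap other genes. A row for the pseudogene Phgdh-ps1 had 214 counts under force and 276 in the control, and how reads shared with Phgdh were assigned is not stated.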

How the data were processed

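The authors deposited raw counts per gene, 1 column per library, for 44792 rows. Per the submitters' processing notes, HISAT2 and build GRCm38 were used. Neither the notes nor the labels state the counter, annotation release, strandedness or handling of multiply aligned reads. All rows entered the scaling.

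From these deposited counts, TMM factors (edgeR 4.0.16, R 4.3.3) gave effective library sizes and CPM. Printed ratios and their exact 95% conditional binomial (Clopper-Pearson) intervals use plain counts (scipy 1.17.1). Fold limits and log2 ratios use a prior count of 0.5. Genes of at least 1 CPM in either library were tested across the transcriptome in this sense only, since 1 library per group leaves edgeR's quasi-likelihood fit no residual degrees of freedom. The floor for 0 counts is 3 counts per library. The ratio and interval code was tested on simulated data. Gene spans, counted from 1, came from RefSeq on GRCm38.p6. CPM is not scaled for length, so genes called abundant or most abundant are so by CPM only, not by number of transcripts.

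The members and lists were chosen with earlier results of these data known. All 35 members are named, and from each related list the 2 highest, the 2 lowest and any gene past 2-fold, except that an item so selected is left out here. Eif2ak1, Eif2ak2, Mbd6 and the other overlapping genes, Bnip3 and Ndrg1 were chosen after their values were seen. Alternatives were total counts, DESeq2 1.42.0 size factors, upper-quartile factors, a loess fit, other CPM minimums and prior count, and intervals widened for an assumed coefficient of variation.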

Additional observations from a re-analysis of the deposited data

How the results depend on the processing

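The 8 members called higher at the 25% limit all remained so with total counts, DESeq2 size factors, upper-quartile factors, the loess fit, no CPM minimum, a CPM minimum of 5 and a prior count of 5. The loess fit added Slc1a4. With intervals widened for an assumed coefficient of variation of 0.1 between cultures, 7 of the 8 remained, Mthfd1l being lost. The count of members lower at the 25% limit was 1 in place of 2 with upper-quartile factors, with the loess fit and with the widened intervals, Slc38a2 remaining and Wars being lost. No member was called at 2-fold under any of these alternatives. The medians of the members and of their 4 groups stayed within the counting interval of the middle gene, or the mean interval of the middle pair, but the median log2 ratio of the transporters changed sign, to 0.01 from -0.05, with a CPM minimum of 5, which removes Slc7a3. The sign of the log2 ratio changed for 1 member, Slc1a5, with DESeq2 size factors. No paired analysis was possible because each group has 1 library. Depth limits Slc7a3 most, and the variation between cultures was not measured for any gene.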
